A study of Gallus gallus with 5 samples.

Results

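Integrins, cadherins, claudins, connexins and nectins are the membrane proteins by which epithelial cells hold on to matrix and to each other. Their transcripts were examined in granulosa cells, which line the follicle around the oocyte, from 6–8-mm follicles of broiler breeder hens. Members were taken by gene symbol from the deposited table, as symbols that begin with ITGA or ITGB, CDH and a digit, PCDH, CLDN, GJA to GJD or NECTIN, together with the TJP genes and OCLN. This gave 90 of the 24356 listed genes (13869 of which have a symbol), each with a symbol of its own. They are 11 integrin alpha chains, 7 integrin beta chains, 18 cadherins, 14 protocadherins, 12 claudins, 4 genes of the tight junction plaque and of occludin, 15 connexins, 3 nectins and 6 genes whose symbols fit but whose products are not chains of these families. Hens of 1 commercial broiler breeder line were fed either ad libitum (FF) or a restricted allowance (RF) for 6 weeks from 28 weeks of age, and poly(A) RNA was sequenced with 1 library per hen from the pooled granulosa cells of several follicles. The comparison asks how the diet is reflected in these genes, with 2 FF hens and 3 RF hens. FF hens had been chosen for many preovulatory follicles and RF hens for a normal number, the diets were kept in separate pens, and an FF library that the authors set aside after clustering was not analysed here. Diet, pen and follicle number therefore cannot be told apart in these libraries.

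An integrin is an alpha chain and a beta chain joined in the membrane, and it links laminin, collagen or fibronectin outside the cell to actin inside. Classical cadherins and nectins build the adherens junction between neighbouring cells, and claudins and occludin, anchored by the TJP proteins, build the tight junction. Connexins form gap junctions, the channels through which granulosa cells exchange small molecules with each other and, in the follicle, with the oocyte.

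The values are normalized counts, that is, reads per gene divided by a scaling factor for each library and rounded by the authors. Library sums were 28891495 and 29491091 for FF hens and 25929234 to 27277087 for RF hens. Such sums are not read depths, and values are not scaled for transcript length, so that levels are compared here between libraries and not between genes. Granulosa markers were present in every library, with summed values of 177269 and 229596 in FF hens and 105711 to 114255 in RF hens, and FOXL2 and GATA4 stood at 13657 or more in each. Of these 8 markers, INHA, INHBB and CYP11A1 were higher in FF hens by the test described below and 0 were lower. AMH and WT1 had FF libraries below all RF libraries without passing that test (log2 fold changes −0.62 and −1.42, adjusted p = 0.21 and 0.156). The study listed WT1 as upregulated in RF hens with DESeq2. Markers of other cells were also detected. The 14 theca and stroma markers summed to 9279 and 9701 for FF hens and 6846 to 9966 for RF hens, and the 10 endothelium markers that were matched summed to 4749 and 5474 against 3894 to 5621. Such sums rest mostly on the highest genes. The median log2 fold changes were −1.90 over 12 tested theca and stroma markers and −1.02 over 9 tested endothelium markers. At an unadjusted p under 0.05 by the same test, 4 of each were lower in FF hens, and 1 and 0 higher. Of all tested genes, 8.22% were lower and 9.58% higher, and those with a mean under 200 had a median of −0.24. Among the markers counted as lower, PDGFRA, TAGLN, POSTN, KDR and CD34 reached the minimum mean of 10 only through the RF hens. Their FF means were 0, 1.5, 6.5, 6.5 and 2. DES, in the theca and stroma median, did so too, with an FF mean of 8.5. Nothing is therefore read from these counts and medians. The 9 matched red blood cell and thrombocyte entries summed to 3701 and 4013 for FF hens and 1413 to 1757 for RF hens, with a median log2 fold change of 1.60. These sums rest mostly on ALAS2, the heme synthesis enzyme of red cells, with 3369 and 3318 in FF hens and 1528, 1230 and 1243 in RF hens. The globin genes HBA1 and HBBA did not exceed 327 in any library, and the cell source of ALAS2 was not tested. ALAS2 passed the test as higher in FF hens (log2 fold change 1.33, adjusted p = 0.0223), and HBA1 and HBBA did not (2.40 and 2.24, adjusted p = 0.0737 and 0.0837). HBA1 was, however, among the genes that the study listed as upregulated in FF hens with DESeq2. The part of these cells in the members' values was not tested. In RF replicate 1, 8 of the 14 theca and stroma markers and 6 of the 10 endothelium markers had the highest value of the 5 libraries. Of all tested genes, 17.6% did. Among these markers was CD34 of endothelium, at 274 against 1 to 21 elsewhere. The theca and stroma markers DCN and LUM were at 13 or below, and PDGFRA was listed at 0 in both FF libraries and at 56, 14 and 7 in RF replicates 1, 2 and 3. The 7 matched white blood cell markers other than CD3E and CSF1R did not exceed 140. CD3E had 852 and 517 in FF hens and 194, 457 and 628 in RF hens, and CSF1R had 130 and 154 against 304, 268 and 217. Of 6 tested white blood cell markers, 0 passed the test. At an unadjusted p under 0.05 with limma, 1 was higher in FF hens (CD3D, log2 fold change 1.40) and 1 lower (CSF1R, −0.88). In bulk RNA, fewer cells of a type and less RNA per cell cannot be told apart.

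No integrin, cadherin, claudin, connexin or nectin gene passed the test between the diets. Of the 90 members, 58 had a mean of at least 10 normalized counts and were tested, 7 were listed at 0 in all 5 libraries, and no library exceeded 38 in any of the 32 untested members. With limma on log2(normalized count + 1), adjusted over all 13305 tested genes, 0 members were higher and 0 lower in FF hens at an adjusted p of 0.05, where 1.08% of all tested genes passed (0.842% higher and 0.241% lower). The study's further thresholds, a log2 fold change beyond 1 and a count of 200, were applied here to the limma fit. They were met by 0 members and by 0.699% and 0.15% of all genes in the same directions. The study's own DESeq2 test called more genes, so these counts are not its results. At an unadjusted p under 0.05 there were 13 members, or 22.4%, against 17.8% of all tested genes. Of these, 8 had higher values in FF hens (background 9.58%) and 5 lower values (background 8.22%). These shares lie near those of all genes. limma without the mean-variance trend called 0 genes in the whole table, members included.

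The signs of the differences were mixed. The log2 fold change, FF minus RF, was positive in 22 of the 58 members and negative in 36, with a median of −0.13 against 0.01 for all tested genes. It was above 1 in 5 members, where 3.49% of all genes were, and below −1 in 11 members, or 19%, where 6.04% of all genes were. Both FF libraries lay above all RF libraries in 12 members (background 19.3%) and below them in 15 (background 16.9%), so 46.6% of members had groups that did not overlap, against 36.3% of all genes. The standard errors of the members were wide, with a median of 0.39 against 0.22 for all tested genes.

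**Figure D1:**
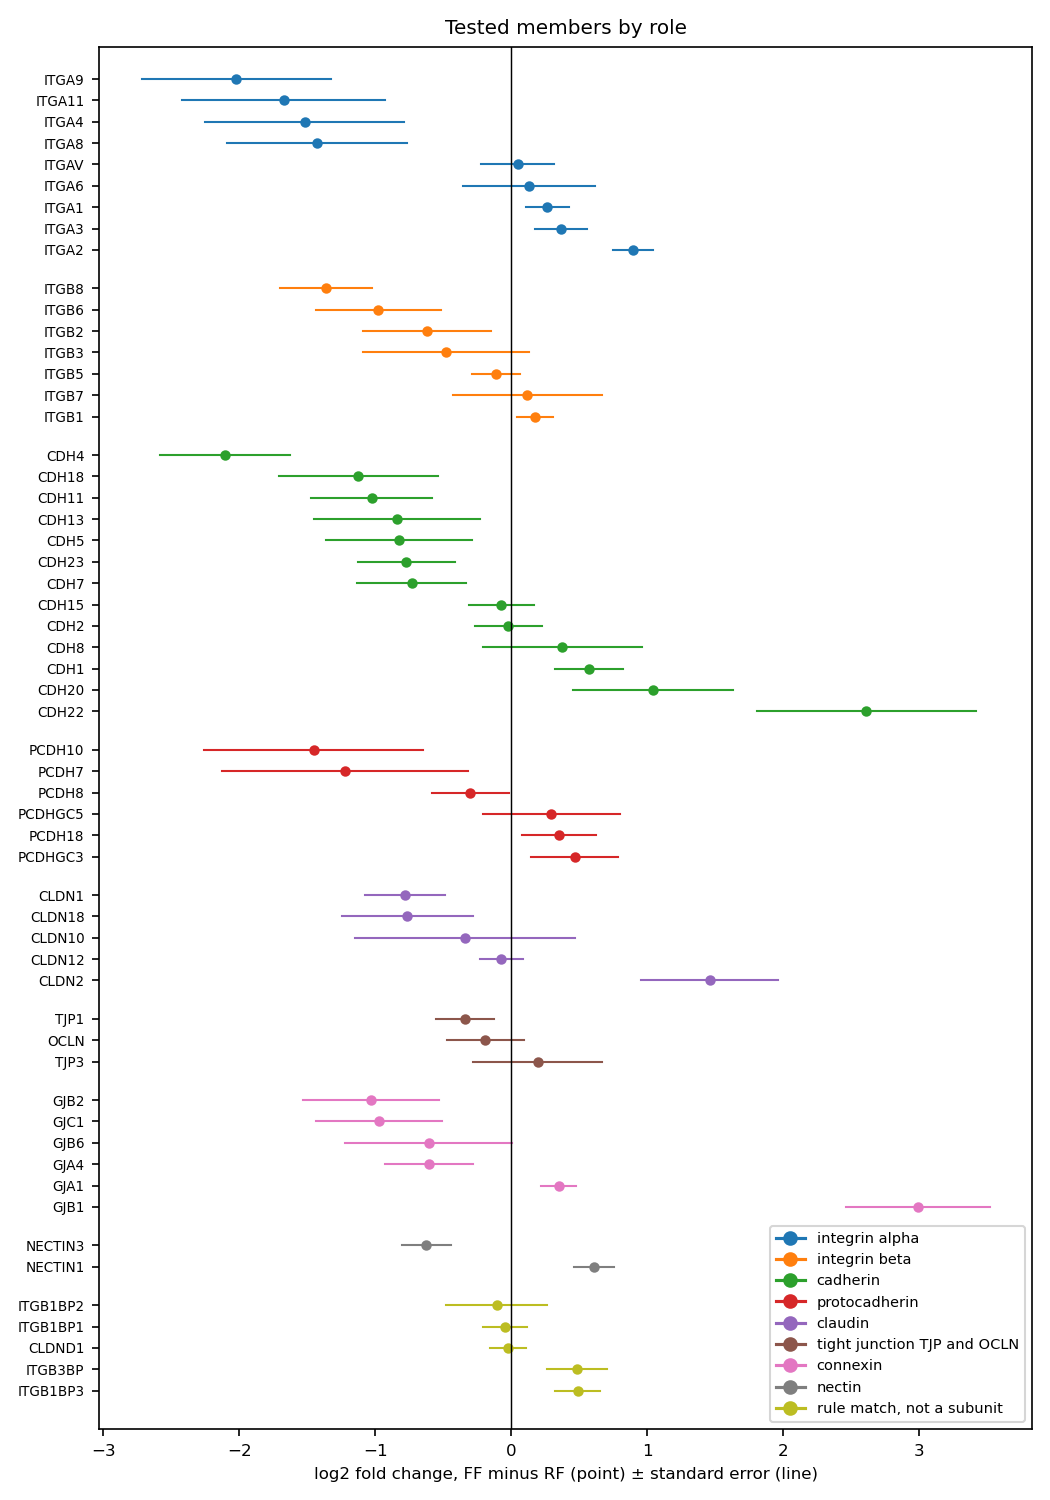
Each point is the log2 fold change of 1 of 56 tested members, FF minus RF, and each line its standard error, with genes grouped by role and the line of no difference at 0. The points run from −2.10 for CDH4 to 2.99 for GJB1, and each role with more than 1 tested gene has points on both sides of 0.

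Among the integrin alpha chains, ITGA2 had the lowest p of all members. ITGA2 pairs with ITGB1 to make a receptor for collagen and laminin, and it stood at 3939 and 4984 normalized counts in FF hens and at 2250, 2552 and 2367 in RF replicates 1, 2 and 3. Both FF libraries were above the RF libraries, with means of 4462 ± 739 (SD, n = 2) and 2390 ± 152 (SD, n = 3). Its difference of 0.89 on the log2 scale (standard error 0.15, 95% interval 0.54 to 1.24, adjusted p = 0.0511 with limma) was just outside the threshold. The p passed inside with a pseudocount of 8 (adjusted p = 0.0492) and when only genes with a mean of 50 were tested (0.0466), and with the other alternatives it stayed outside, with 0.0886 to 0.188 when 1 library was left out. ITGA1, another collagen-binding partner of ITGB1, had 782 and 669 in FF hens and 609, 615 and 581 in RF hens, a log2 fold change of 0.27 (adjusted p = 0.425).

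ITGA3 and ITGA6, the laminin-binding chains, had groups that overlapped. ITGA3 had 6464 and 4231 normalized counts in FF hens and 4147, 4289 and 3762 in RF hens (log2 fold change 0.37, adjusted p = 0.377), so that its difference rested on FF replicate 1 and was 0.06 without it. ITGA6 ranged from 1946 in RF replicate 2 to 6131 in RF replicate 3, which brackets both FF libraries, and its fold change of 0.13 turned to −0.01 when libraries were set to equal totals. ITGAV, the chain that binds the RGD motif of fibronectin and vitronectin with several beta partners, had 1765 and 1630 against 1180, 1647 and 2280 (log2 fold change 0.05, adjusted p = 0.951).

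ITGA4, ITGA8, ITGA9 and ITGA11 had lower means in FF hens without passing the test. ITGA9, a receptor of tenascin, had 13 and 70 normalized counts in FF hens and 146, 83 and 169 in RF hens (log2 fold change −2.02, standard error 0.70, adjusted p = 0.209), with −3.19 without FF replicate 2 and −0.85 without FF replicate 1. ITGA4, carried in mammals by white blood cells among others, had 8 and 15 against 87, 21 and 20 (log2 fold change −1.52, adjusted p = 0.338), and ITGA8, the receptor of nephronectin, had 9 and 7 against 50, 20 and 12 (−1.43, adjusted p = 0.324). In both genes RF replicate 1 was the highest library, and the fold changes without it were −0.84 and −0.89. ITGA11, a collagen receptor of fibroblasts in mammals, had 275 and 56 in FF hens and 535, 195 and 608 in RF hens, so that the groups overlapped (−1.67, adjusted p = 0.307), and the fold change was −2.81 without FF replicate 1 and −0.54 without FF replicate 2. ITGA7 was not tested, with 2 in each FF library and 36, 3 and 5 in the RF libraries, nor was ITGA2B, at 2 to 19.

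Of the 7 beta chains, ITGB1 and ITGB8 had FF libraries outside the RF range at more than 200 normalized counts. ITGB1, the common partner of most alpha chains here, was nearly level, with 16257 and 16253 in FF hens and 16097, 12931 and 14383 in RF hens. Its log2 fold change of 0.17 had a 95% interval of −0.15 to 0.49 (adjusted p = 0.545). ITGB8, which with ITGAV binds and activates latent TGF-beta in mammals, had 512 and 570 in FF hens and 1081, 1082 and 2298 in RF hens. Its means were 541 ± 41 (SD, n = 2) and 1487 ± 702 (SD, n = 3), the difference being −1.36 in log2 units (standard error 0.34, 95% interval −2.18 to −0.55, adjusted p = 0.113). Without RF replicate 3, the highest library, it was −1.0 (adjusted p = 0.0707), the least p of the fits that left out a library. The vitronectin receptor chain ITGB5 had 1297 and 1026 against 1103, 1254 and 1404 (−0.11, adjusted p = 0.777). ITGB6, another TGF-beta activating chain, had 12 and 19 against 42, 23 and 30 (−0.98, adjusted p = 0.329), and ITGB2, the leukocyte chain, ITGB3 and ITGB7 had values of 9 to 68 in groups that overlapped.

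Of 13 tested cadherins, 9 had a negative fold change, with a median of −0.73. Of all tested genes, 49% were negative, with a median of 0.01. Most of these cadherins had a mean under 200, a level at which 65% of all tested genes were negative (median −0.24). CDH2 (N-cadherin) is a known cadherin of granulosa cells, and CDH1 (E-cadherin) is that of most epithelia. CDH2 had 7031 and 7918 normalized counts in FF hens and 5730, 7265 and 10448 in RF hens, groups that overlapped, with a log2 fold change of −0.02 and a 95% interval of −0.61 to 0.56. CDH1 had 351 and 303 in FF hens and 190, 197 and 281 in RF hens, with the FF libraries on top (log2 fold change 0.57, standard error 0.25, adjusted p = 0.293). CDH11, a cadherin of mesenchymal cells, had 499 in FF replicate 1, 1493 in FF replicate 2 and 1378, 2127 and 1862 in the RF libraries (−1.03, adjusted p = 0.292), and the difference was −0.24 without FF replicate 1.

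CDH4 and CDH22 had the cadherins' lowest p values, both at low levels. CDH4 (R-cadherin), first described in the chick retina, had 14 and 16 normalized counts in FF hens and 59, 116 and 45 in RF hens. The groups did not overlap, and the difference was −2.10 in log2 units (standard error 0.48, 95% interval −3.24 to −0.96, adjusted p = 0.0949), with −2.39 to −1.72 when 1 library was left out. CDH22 had 35 and 9 in FF hens and 2, 4 and 1 in RF hens (log2 fold change 2.61, adjusted p = 0.177). Its mean of 10.2 reached the minimum of 10 only through the FF hens, where it is high, and it was not tested without FF replicate 1. With a pseudocount of 8 the fold change of CDH22 was 1.40 on the log2 scale. CDH5 (VE-cadherin), which marks endothelium, had 72 and 59 in FF hens and 180, 161 and 54 in RF hens, and it was highest in RF replicate 1, as were 6 of the 10 endothelium markers, whose part in this was not tested. CDH13, an anchored cadherin of vessels among other tissues, had 59 in RF replicate 1 and 14 to 22 elsewhere. CDH15, known from muscle, had 661 and 536 against 782, 645 and 487 (−0.07, adjusted p = 0.907). CDH7, CDH8, CDH18, CDH20 and CDH23 ranged from 6 to 95, with FF hens below RF hens in CDH7 and CDH23, and the 5 untested cadherins, CDH6, CDH9, CDH10, CDH17 and CDH19, did not exceed 12. CDH6 and CDH10 were listed at 0 in both FF libraries and at 1 to 12 in the RF libraries.

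**Figure D2:**
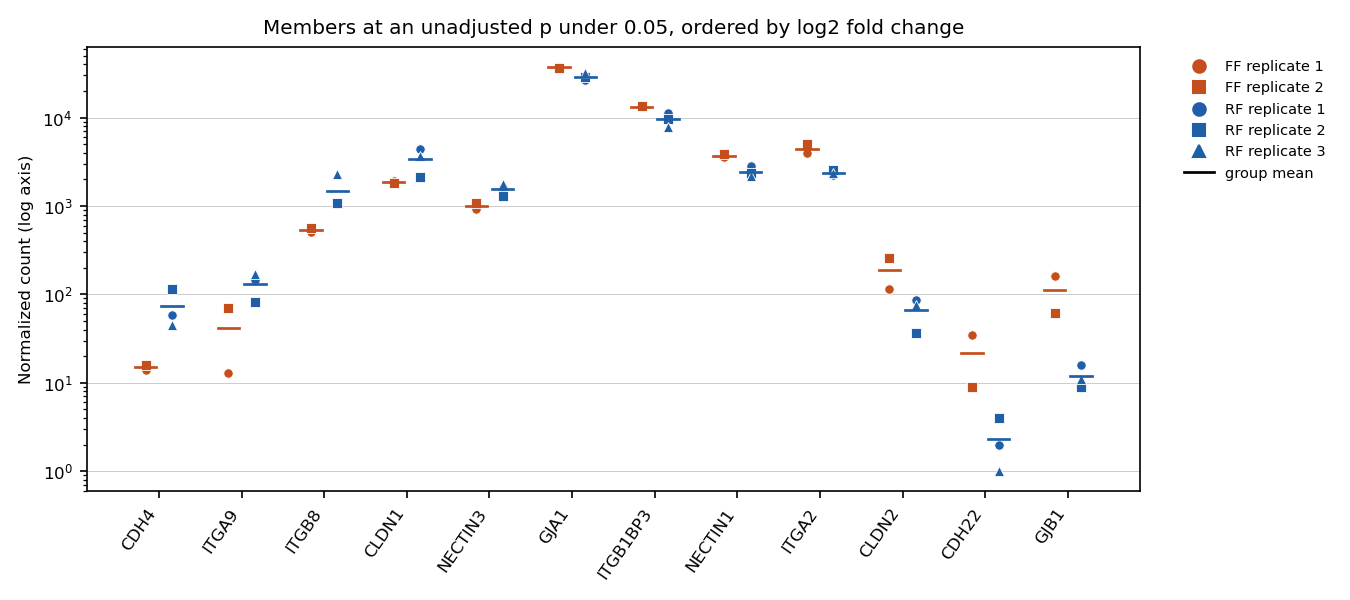
Normalized counts, on a log axis, of 12 members at an unadjusted p under 0.05, ordered by log2 fold change, with FF libraries in orange, RF libraries in blue and a bar at each group mean. The FF and RF points do not overlap in any of the 12 genes, from CDH4 (14 and 16 against 45 to 116) at the left to GJB1 (62 and 160 against 9 to 16) at the right. Choosing genes by that p favours groups that do not overlap, so this is no separate result. Of all tested genes, 36.3% had groups that did not overlap.

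Protocadherins, a branch of the cadherins with roles in cell sorting and in neurons, included 8 genes too low to test and 6 that were tested, with 0 at an unadjusted p under 0.05. PCDH18 had 1907 and 2782 normalized counts in FF hens and 1541, 1515 and 2521 in RF hens (log2 fold change 0.35, adjusted p = 0.55). PCDHGC3 had 601 and 473 against 256, 422 and 532 (0.47, adjusted p = 0.502), and PCDH8 had 140 and 170 against 247, 188 and 149 (−0.30, adjusted p = 0.62). PCDHGC3, PCDHGC5, PCDHA4 and PCDHAC1 come from clusters in which transcripts share their last exons, so that reads may have been split among neighbours. PCDH10 had 8 and 5 in FF hens and 12, 56 and 10 in RF hens (−1.45, adjusted p = 0.399), where RF replicate 2 stood apart. PCDH12, a protocadherin of endothelium in mammals, was not tested and had 38 in RF replicate 1 and at most 2 in each other library.

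Claudin 1 and claudin 2 had differences of opposite sign between the diets, and neither passed the test. CLDN1, which tightens the paracellular barrier, had 1936 and 1835 normalized counts in FF hens and 4372, 2110 and 3688 in RF hens, so the lowest RF library was close to the FF libraries. Its log2 fold change was −0.78 (standard error 0.30, 95% interval −1.49 to −0.07, adjusted p = 0.239). CLDN2, which forms a pore for small cations, had 115 and 260 in FF hens and 87, 37 and 75 in RF hens. The FF libraries were above the RF libraries, with a log2 fold change of 1.46 (standard error 0.50, 95% interval 0.26 to 2.65, adjusted p = 0.208), which was 0.87 without FF replicate 2 and 2.04 without FF replicate 1. CLDN12 was almost level, with 910 and 942 against 867, 975 and 1093 (−0.07, adjusted p = 0.848). CLDN10 and CLDN18 were tested at 7 to 52, and the 7 untested claudins, among them CLDN14, CLDN19, CLDN20 and CLDN23, did not exceed 4, with CLDN3, CLDN8 and CLDN16 listed at 0 throughout.

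The tight junction scaffold genes and occludin showed overlapping groups. TJP1 had 1986 and 2912 normalized counts in FF hens and 2858, 2674 and 3671 in RF hens (log2 fold change −0.34, 95% interval −0.85 to 0.17). TJP3 had 312 and 518 against 187, 549 and 422 (0.19). Occludin (OCLN), the strand protein they anchor, had 222 and 173 against 290, 219 and 176 (−0.19). The lowest adjusted p of this group was 0.464.

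Of the 15 connexins, 7 were tested, with 3 positive and 4 negative fold changes and a median of −0.61. The 3 with higher values in FF hens were those at an unadjusted p under 0.05 with limma. At that p, 9.58% of all tested genes were higher and 8.22% lower, and nothing is read from a count among 7 genes. GJA1, the principal gap junction protein of granulosa cells in mammals, had 37105 and 36759 normalized counts in FF hens and 26873, 28615 and 31585 in RF hens. The FF libraries were above every RF library, with means of 36932 ± 245 (SD, n = 2) and 29024 ± 2383 (SD, n = 3), and the difference was 0.35 in log2 units (standard error 0.13, 95% interval 0.04 to 0.66, adjusted p = 0.227). With libraries at equal totals it was 0.21.

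GJB1, a connexin of liver and Schwann cells in mammals, showed the largest fold change of any tested member. It had 160 and 62 normalized counts in FF hens and 16, 9 and 11 in RF hens, groups set well apart at a low level. The means were 111 ± 69.3 (SD, n = 2) and 12 ± 3.61 (SD, n = 3), a difference of 2.99 in log2 units (standard error 0.53, 95% interval 1.73 to 4.25, adjusted p = 0.0593). Its fold change was 2.31 to 3.67 when any single library was left out, where groups that do not overlap cannot change sign. The 4 tested connexins outside that unadjusted p had lower means in FF hens, and none passed the test. GJC1 had 108 and 76 against 324, 153 and 115 (−0.97, adjusted p = 0.332), GJA4, a connexin of endothelium and, in mice, of the oocyte surface, had 122 and 97 against 230, 162 and 123 (−0.61, adjusted p = 0.383), and GJB2 had 8 in each FF library against 25, 14 and 15. GJB6 had 35 in RF replicate 1 and 10 to 13 elsewhere. RF replicate 1 had the highest value in all 4 of these genes, and without it the fold change was −0.54 for GJC1 and −0.37 for GJA4. The 8 untested connexins, among them GJA3, GJA5 and GJD2, did not exceed 18.

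NECTIN1 and NECTIN3, adherens junction proteins that bind each other across the gap between cells, had differences of opposite sign, and neither passed the test. NECTIN1 had 3597 and 3823 normalized counts in FF hens and 2802, 2334 and 2205 in RF hens, with FF above RF (log2 fold change 0.61, standard error 0.14, 95% interval 0.26 to 0.95, adjusted p = 0.102). NECTIN3 had 918 and 1087 in FF hens and 1593, 1285 and 1784 in RF hens, with FF below RF (−0.62, standard error 0.18, 95% interval −1.06 to −0.19, adjusted p = 0.16). Neither fold change turned sign under any alternative, which groups that do not overlap favour. With libraries at equal totals NECTIN1 was 0.47 and NECTIN3 −0.76. NECTIN4 was at 6 or below.

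Ratios of paired members do not depend on how libraries were scaled, and 5 were formed after the values had been seen, so they are a description without a test. NECTIN1 over NECTIN3 was 3.92 and 3.52 in FF hens and 1.76, 1.82 and 1.24 in RF hens. CLDN2 over CLDN1 was 0.0594 and 0.142 in FF hens and 0.0199, 0.0175 and 0.0203 in RF hens. ITGA2 over its partner ITGB1 was 0.242 and 0.307 against 0.14, 0.197 and 0.165. In the opposite direction, ITGB8 over its partner ITGAV was 0.29 and 0.35 in FF hens and 0.916, 0.657 and 1.01 in RF hens. CDH1 over CDH2 was 0.0499 and 0.0383 against 0.0332, 0.0271 and 0.0269. In none of the 5 ratios did the FF and RF libraries overlap, which the choice of pairs favours, so this is no separate result. NECTIN1 and CLDN2 had FF libraries above RF, and NECTIN3 and CLDN1 below, so their ratios could not overlap. ITGA2, ITGB8 and CDH1 each had groups that did not overlap by themselves. Of all tested genes, 36.3% had such groups.

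**Figure D3:**
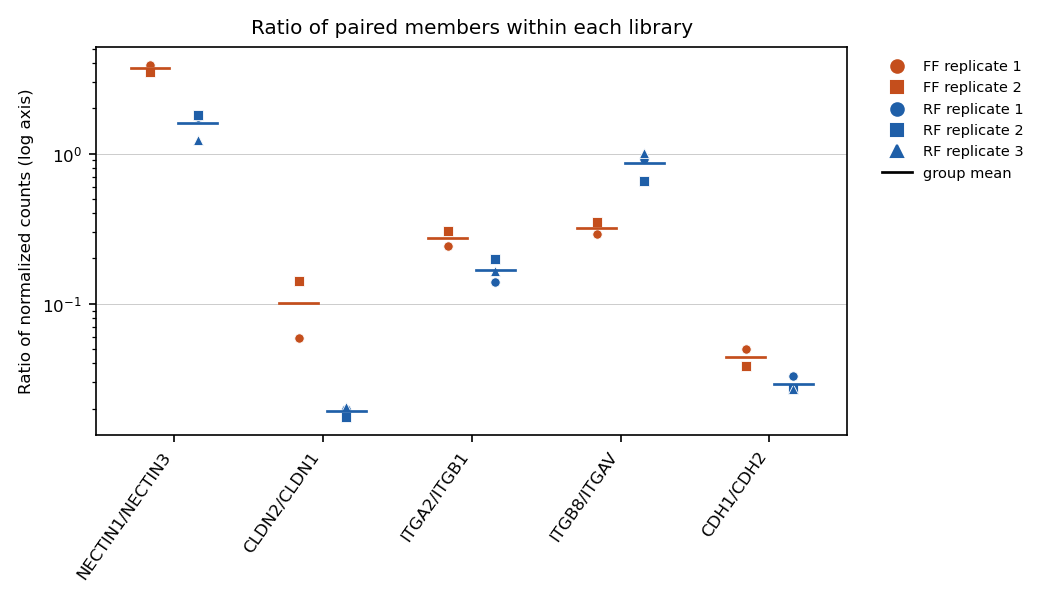
Ratio of the normalized counts of 2 members within each library, on a log axis, for 5 pairs, with FF libraries in orange, RF libraries in blue and a bar at each group mean. FF points are above RF points in 4 pairs and below them for ITGB8/ITGAV (0.29 and 0.35 against 0.657 to 1.01). Forming the pairs after the values had been seen favours groups that do not overlap.

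The sign of the fold change was split by level in the members, and in all tested genes as well. Of the 28 tested members with a mean under 200 normalized counts, 21 had a negative fold change (75%), where 65% of all tested genes under 200 did, and their median was −0.75 against −0.24. A fold change below −1 was found in 8 of them (28.6%), against 15.7% of those genes. The mean used by the filter covers 3 RF and 2 FF libraries, and the part of the filter in these signs was not tested. With no minimum the median was −0.19 for the members and −0.03 for all genes, against −0.13 and 0.01 in the main fit. ITGA8, PCDH10, CLDN18 and GJB2 reached the minimum of 10 only through the RF hens, with FF means of 8, 6.5, 8.5 and 8. Of the 30 members with a mean of at least 200, 15 had a negative fold change (50%), where 41.8% of all tested genes of that level did, and their median was 0.01 against 0.06 for all genes of that level. A fold change below −1 was found in 3 of these 30 members (10%), against 1.71% of all tested genes of that level. RF replicate 1 was the highest library in 12 of the 28 low members (42.9%, against 29.1% of all low genes), and without it their median was −0.54. Theca, stroma and endothelium markers were also often highest in RF replicate 1, as given above, and so were 6 of 7 matched oocyte entries (ZAR1 is listed under more than 1 ID), whose sums were 915 and 1178 in FF hens and 1251 to 2100 in RF hens. Their part in the low members' values was not tested. RF replicate 3, in contrast, was the highest library in 12 of the 30 members with a mean of at least 200 (40%, against 25.1% of all such genes), among them CDH2, ITGA6, ITGB8 and TJP1.

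**Figure D4:**
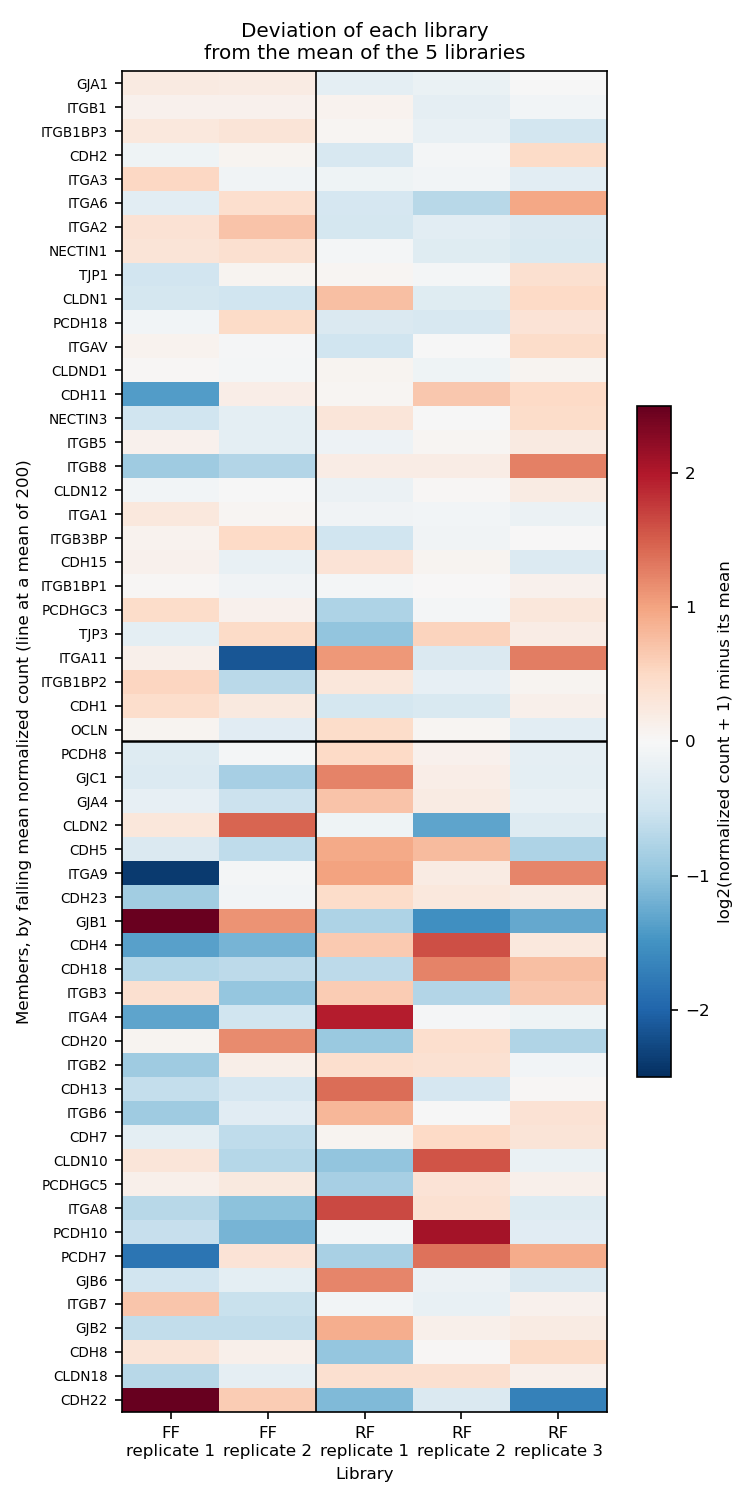
Rows are 56 tested members by falling mean normalized count and columns the 5 libraries, and colour is log2(normalized count + 1) minus the mean of the 5 libraries, red above and blue below. Below the line at a mean of 200, RF replicate 1 is the highest library in 12 of 28 rows, and above it RF replicate 3 is the highest in 11 of 28 rows.

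Of the 6 genes whose symbols fit the rule but that encode no chain of these families, 5 were tested and none passed. ITGB1BP3, an older symbol of a nicotinamide riboside kinase, had 12991 and 13446 normalized counts in FF hens and 11172, 9541 and 7843 in RF hens (log2 fold change 0.49, adjusted p = 0.206). ITGB3BP, a centromere protein, had 665 and 891 against 448, 590 and 631 (0.48, adjusted p = 0.321). ITGB1BP1, which binds the tail of ITGB1, had 465 to 529 in all libraries, CLDND1 had 1493 to 1707, and ITGB1BP2, a chaperone of muscle, had 176 to 410. ITGBL1 was listed at 0 throughout.

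The proteins that bind these membrane chains inside the cell were counted in lists of cadherin and desmosome partners, tight junction partners, pannexins and integrin adaptors. In the last list, 2 of 27 tested genes passed the test as higher in FF hens and 0 as lower, where 0.842% and 0.241% of all tested genes did. These lists were chosen with earlier results of the data known, and nothing is read from the counts. PXN (paxillin), an adaptor at the integrin tail, had 5406 and 4692 normalized counts in FF hens and 2317, 2228 and 1992 in RF hens, which is 1.21 higher in log2 units (standard error 0.13, adjusted p = 0.0223). VCL (vinculin), which couples integrins and cadherins to actin, had 3758 and 3947 against 1264, 1756 and 1954, which is 1.24 higher (standard error 0.20, adjusted p = 0.0496). BCAR1, a docking protein of the same sites, had 11510 and 6335 against 2549, 3112 and 1954 and stood just outside (1.78, adjusted p = 0.052, and 0.0485 with a minimum mean of 50). TLN1 (talin), which turns integrins on, had 15949 and 12212 against 10252, 10633 and 11391 (0.38, adjusted p = 0.256), while PTK2 (focal adhesion kinase) had 6716 and 7143 against 8075, 9127 and 10229 (−0.39, adjusted p = 0.214). The median of this list was −0.09.

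Among 20 tested tight junction partners, 1 passed the test as lower in FF hens and 0 as higher, against 0.241% and 0.842% of all tested genes. This was MPDZ, a scaffold with many PDZ domains that binds claudins, with 2462 and 2468 normalized counts in FF hens and 4413, 4862 and 4638 in RF hens, a difference of −0.91 in log2 units (standard error 0.11, adjusted p = 0.0265). PRKCI, the atypical protein kinase C of the polarity complex, had 1599 and 1865 against 2726, 2469 and 3068 (−0.67, adjusted p = 0.0913). MPP5, which links the polarity proteins, had 4681 and 5623 against 4498, 5087 and 6981 (−0.08, adjusted p = 0.877), and JAM3, an adhesion molecule of the junction, had 4702 and 4388 against 5182, 6235 and 5168 (−0.28, adjusted p = 0.34). Of 14 cadherin and desmosome partners, 0 passed. CTNNB1 (beta-catenin) had 8907 and 10636 in FF hens and 4737, 6579 and 7126 in RF hens (0.68, adjusted p = 0.156), CTNND2 had 440 and 406 against 764, 731 and 690 (−0.78, adjusted p = 0.0721), and DSP (desmoplakin) had 21860 and 26966 against 25284, 24627 and 36164 (−0.22, adjusted p = 0.622). PANX1, PANX2 and PANX3, channel proteins related to gap junctions, had 22 to 315 and 0 calls. PXN, VCL and MPDZ each lost the call without FF replicate 1, FF replicate 2, RF replicate 1 or RF replicate 2, with adjusted p values of 0.0652 to 0.246, and each kept it without RF replicate 3.

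**Figure D5:**
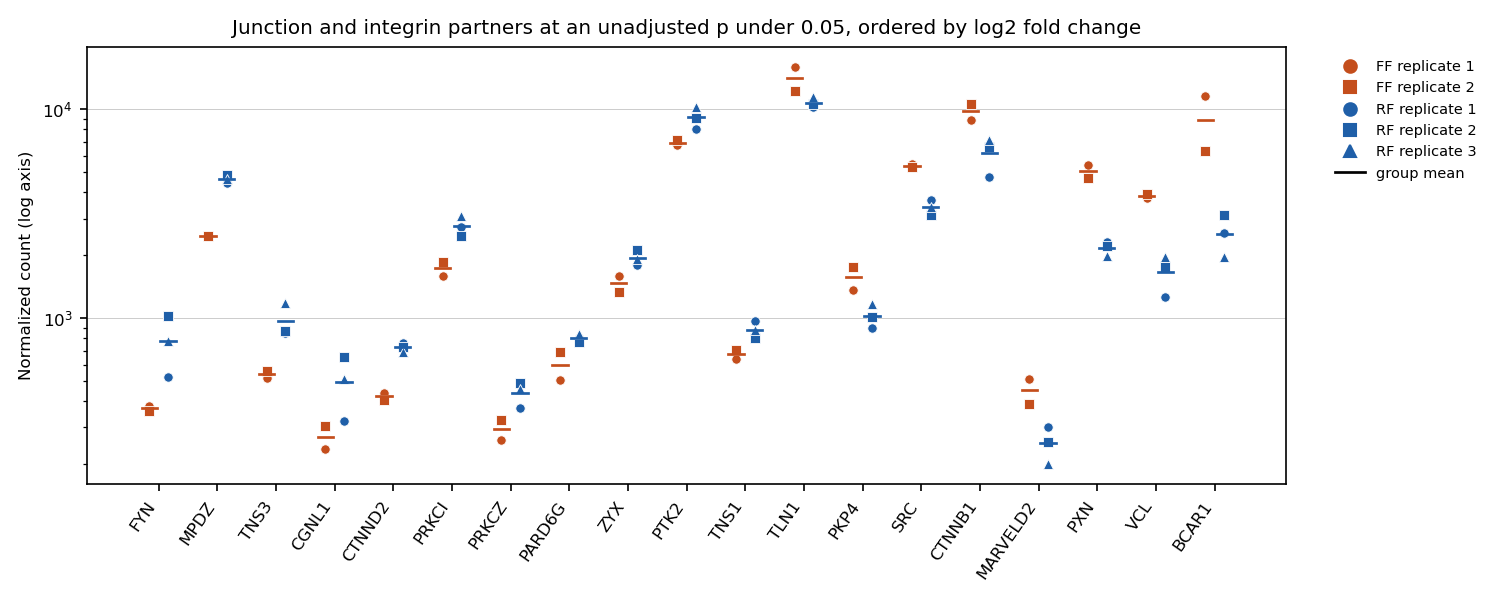
Normalized counts, on a log axis, of the 19 junction and integrin partners at an unadjusted p under 0.05, ordered by log2 fold change, with FF libraries in orange, RF libraries in blue and a bar at each group mean. The FF and RF points do not overlap in any of the 19 genes, which choosing them by that p favours. Of all tested genes, 36.3% had groups that did not overlap. PXN, VCL and MPDZ are those that passed the adjusted threshold.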

How the data were processed

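Granulosa cell RNA from 2 FF and 3 RF hens was sequenced by the authors from directional poly(A) libraries. Per the labels and the study's methods, reads were trimmed with Trim Galore, aligned to galGal6 with STAR and normalized with DESeq2. The versions of these tools, the read counter and its strand setting were not given in the sources used here. What the authors deposited is this normalized count as a whole number, treated as a score, not as raw counts, so that count models were not run and read depth is not known from them.

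Members were matched by symbol, and members and lists were chosen with earlier results of these data known. FF minus RF was tested by limma (version 3.58.1, R 4.3.3) with a mean-variance trend, two-sided, after taking log2(normalized count + 1). Benjamini-Hochberg adjustment covered all 13305 genes whose mean reached 10. Fold changes on this scale understate those of low genes. The residual and prior degrees of freedom were 3 and 3.71, and the fit was tested on simulated data. Intervals are 95% intervals of limma's moderated fit. The p-values set the difference between the groups against the spread between these hens, moderated by that of all tested genes. As the hens were chosen by follicle number, this spread need not be that of hens on each diet.

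Any member may be named, with values in every library for those at an unadjusted p under 0.05, those with a log2 fold change beyond 1 and no overlap, and the 2 with the highest mean in each role. Of the partner and ligand lists, genes past an adjusted p of 0.05 and the 2 with the highest mean are named, and the others named were picked after their values were seen. Columns matched the sample labels. Alternatives changed the pseudocount (0.5, 8), the minimum mean (none, 50), the scaling, the variance model and a replicate block, and left out each library. Figures were drawn with matplotlib 3.10.9. A few members are counted but not reported here by name. Sequences and genome coordinates were not used here.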

Additional observations from a re-analysis of the deposited data

How the results depend on the processing

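All 13 members at an unadjusted p under 0.05 kept the sign of their fold change in the 179 fits in which they were tested. They had been chosen by that p from these data, and their FF and RF libraries did not overlap. Leaving out a library cannot turn the sign of such groups, so the kept signs are no separate result. ITGA2 alone crossed the adjusted threshold. With a pseudocount of 8, and also with a minimum mean of 50, 1 member was therefore higher in FF hens. No member was lower, and none met the study's thresholds, under any alternative. Several alternatives called few genes in the whole table, so they could call few members. With no minimum 13 genes were higher and 1 lower, and without RF replicate 1 these were 20 and 3, against 112 and 32 in the main fit. The unadjusted counts of 8 higher and 5 lower became 5 and 8 with equal totals, and the lower count became 9 without the trend. Leaving out 1 library gave 6 to 12 higher and 3 to 8 lower. These unadjusted counts and those of the partners were added after the data were seen. The 2 partners higher in FF hens became 1 with a pseudocount of 0.5, with equal totals or with robust fitting, 0 with no minimum or no trend, and 3 with a minimum mean of 50, where BCAR1 passed, and the 1 lower became 0 with no minimum or no trend. Without 1 library they were 0 to 2 and 0 to 1. The median of the members was −0.19 with no minimum (83 tested), −0.047 with a minimum of 50 (39 tested), −0.30 with equal totals and −0.18 with equal upper quartiles, and −0.22 to −0.14 without 1 library, while the median of all genes went from 0.01 to −0.13 with equal totals.

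With the replicate number as a block, 11 members had higher and 10 lower values at an unadjusted p under 0.05, and the partner counts were 0 and 0. FF and RF libraries of the same number come from different hens, so the numbers were not read as pairs. The deviations of libraries of the same number from their group means correlated at 0.11 and −0.07 across genes. With 2 FF libraries these deviations are equal and opposite in FF replicates 1 and 2, so the correlations cannot show whether pairing is present.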

Other observations

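Matrix proteins that integrins bind were counted in a list of 30, of which 24 were matched and 21 tested. In these, 1 was lower in FF hens and 0 higher, where 0.241% and 0.842% of all tested genes were. The median log2 fold change was −0.67 against 0.01 for all tested genes. LAMA1, a laminin alpha chain of basement membranes, had 606 and 596 normalized counts in FF hens and 1285, 1154 and 1625 in RF hens, a difference of −1.16 in log2 units (standard error 0.18, adjusted p = 0.0456 with limma, and 0.063 to 0.242 when 1 library was left out). FN1 (fibronectin) had 33277 and 24410 in FF hens and 14425, 16381 and 15018 in RF hens, which is 0.90 higher in log2 units (standard error 0.16, adjusted p = 0.0598) and did not pass. LAMC1, the common gamma chain of laminins, had 29622 and 16442 against 14567, 16725 and 21625, and MFGE8, an RGD protein, had 82273 and 57538 against 55066, 58413 and 57767, both with groups that overlapped. NPNT (nephronectin), the ligand of the ITGA8 receptor, had 1479 and 866 in FF hens and 1150, 1581 and 5110 in RF hens. COL4A1, a collagen chain of basement membranes, had 44 and 19 in FF hens and 850, 52 and 704 in RF hens, with FF below RF (−3.40 in log2 units, adjusted p = 0.21, and −2.69 without RF replicate 1). With limma it passed only without RF replicate 2, its lowest RF library (−4.69, adjusted p = 0.0379). The study's own DESeq2 test did list COL4A1 as upregulated in RF hens. It also listed COL4A2, which did not pass with limma (−2.18 in log2 units, adjusted p = 0.29). LAMB1, a laminin beta chain, had 58 and 35 against 657, 60 and 146 (−1.97, adjusted p = 0.325, and −1.04 without RF replicate 1). RF replicate 1 had the highest value in 8 of the 24 matched genes, and in 17.6% of all tested genes.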
